A study of Mus musculus with 7 samples.

Results

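The comparison described here asks what antibodies to PD-1 and TIM-3 added to the HIF-2 inhibitor PT2385 in mice bearing GL261 glioma. It set the 2 libraries labelled PT2385/ICB against the 2 labelled PT2385, out of 7 libraries in the series; these 4 held 20764 of the 40416 cells kept. The members are the cells of 7 classes (microglia, macrophages, dendritic cells, CD8 T, CD4 T, regulatory T and NK cells), assigned from the UMI counts of marker genes. In the 4 libraries 12823 cells fell into these classes: 3390 and 3616 in the PT2385 pools and 2622 and 3195 in the PT2385/ICB pools.

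All mice were wild-type females, 8 to 9 weeks old, implanted with GL261, an established mouse glioma cell line. Live CD45+ cells (CD45 is the pan-leukocyte surface protein; DRAQ7 stains dead cells) were sorted at day 21 from the left, tumor-bearing hemisphere. PT2385 was given at 10 mg/kg from day 7, and ICB stands for immune checkpoint blockade with the rat antibodies RPM1-14 (against PD-1) and B8.2C12 (against TIM-3). Vehicle and rat isotype antibodies were used as controls, but it is not stated whether mice given PT2385 alone received the isotype antibodies. Each library pooled 5000 sorted cells from each of 2 mice, which makes 4 mice a group, and p-values here measure the spread between pools. The other groups, 1 untreated library and 2 libraries of ICB without the drug, serve as context. The 2 ICB libraries also add to the estimate of spread, which the single untreated library cannot.

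HIF-2α, encoded by Epas1, pairs with ARNT to switch on genes of the oxygen response, and PT2385 blocks that pairing. PD-1 (Pdcd1) and TIM-3 (Havcr2) are inhibitory receptors of activated T cells, and TIM-3 is also carried by microglia and other myeloid cells. Microglia are the resident macrophages of the brain; they answer type I interferon and interferon gamma through STAT proteins, which raise antiviral genes, chemokines and the machinery of antigen presentation.

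The 4 libraries held 59839154 to 74057438 UMIs, with a median of 8987 to 12005.5 UMIs a kept cell, and any pair of them shared 3 to 11 cell barcodes. Ptprc, which encodes CD45, stood between 467 and 2425 counts per 1000000 (CPM, of all UMIs summed in a library and class) in the 7 classes. Both PT2385/ICB libraries stood apart in that they held many epithelial cells of the choroid plexus, the tissue that makes cerebrospinal fluid. These numbered 20 and 7 cells in the PT2385 pools against 381 and 714 in the PT2385/ICB pools, where their Ptprc level was 18.3 and 10.6 CPM despite the CD45 gate. The ICB pools held 83 and 200, and the untreated library held 0 of 7961 cells, which allows a share of up to 0.0377% (counting error only). Ttr, the main product of this epithelium, reached 209 to 298 CPM in each of the 7 classes in the PT2385/ICB pools and 0 to 16.2 CPM in the PT2385 pools. Igkc, the immunoglobulin kappa constant gene of B and plasma cells, was also higher there: 33.9 and 43.1 CPM in microglia against 1.78 to 10.8 CPM in the other 5 libraries, and 21.1 and 25.9 CPM in macrophages against 1.23 to 12.0 CPM. In regulatory T cells the groups overlapped (9.74 and 53.8 against 62.6 and 39.3 CPM), and in the other 4 classes both PT2385/ICB pools were above both PT2385 pools. The part of these cells and transcripts in the results was not tested. In the choroid plexus cells Ttr stood at 260411 and 231595 CPM in the PT2385/ICB pools, so genes below 10% of their level in the class where they were highest are not named as changes of a class unless stated.

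Microglia made up a larger share of the combination libraries, and macrophages tended to make up a smaller one. Microglia were 5.32% and 7.11% of kept cells in the PT2385 pools and 21.0% and 29.9% in the PT2385/ICB pools. The PT2385/ICB values lay above both PT2385 values and above the ICB pools (10.9% and 9.18%). The share rose by 2.03 ± 0.51 on the log2 scale (SE; adjusted p = 0.0483, edgeR's quasi-likelihood test over 19 groups of cells). Choroid plexus cells rose from 0.385% and 0.132% to 7.86% and 13.2% (log2 difference 5.34 ± 0.85, adjusted p = 0.00942), a call lost without PT2385 pool 2 (0.0654) or PT2385/ICB pool 2 (0.0520). The microglial call was lost with TMM factors (adjusted p = 0.0850), after removal of the likeliest doublets (0.0568) and without any 1 of the 4 libraries compared (adjusted p up to 0.332); the log2 difference then ranged from 1.75 to 2.27. An exact permutation test of 2 against 2 libraries cannot go below p = 0.333, the value it gave for both shares. The microglial share leaves out cells that were also positive for another lineage. Of 572 and 567 microglia-positive cells in the PT2385 pools, 276 and 377 stayed in the class. In the PT2385/ICB pools 1016 of 1393 and 1621 of 1935 stayed. A larger part was thus left out in the PT2385 pools. The rise of all microglia-positive cells was smaller and was not tested.

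Macrophages were 44.6% and 47.8% of kept cells in the PT2385 pools and 20.5% and 19.0% in the PT2385/ICB pools, with no overlap, but the difference of -1.23 ± 0.51 did not pass (adjusted p = 0.283). Dendritic cells were 2.85% and 3.19% against 1.71% and 1.53% (-0.90 ± 0.49, adjusted p = 0.341). The lymphocytes differed less. CD8 T cells were 4.47% and 2.71% against 3.59% and 4.04%, CD4 T cells 3.70% and 3.68% against 3.80% and 1.86%, regulatory T cells 1.29% and 1.17% against 1.55% and 0.701%, and NK cells 3.06% and 2.51% against 1.94% in both combination pools. None of these 4 differences passed (adjusted p from 0.808 to 0.988). Shares sum to a whole, so a fall of one class and a rise of another cannot be told apart, and no share passed the test of whether ICB acted differently with and without PT2385.

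**Figure D1:**
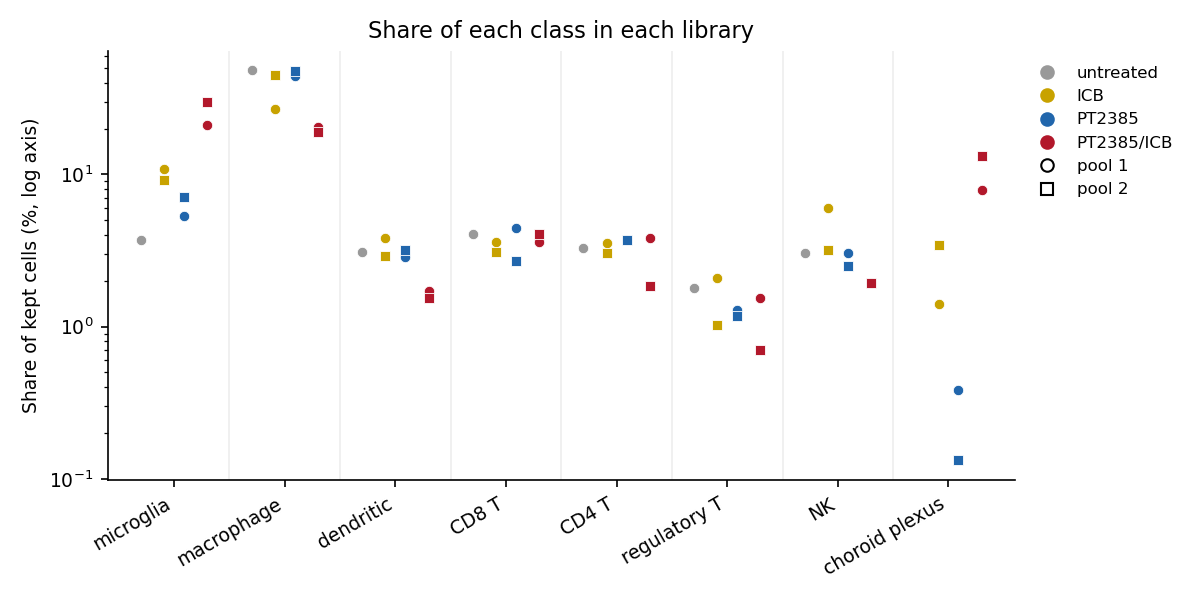
Share of each class among the kept cells of each library, as a percentage on a log axis, with 1 point per library, colored by group and shaped by pool. Microglia and choroid plexus points of the PT2385/ICB pools lie above those of the PT2385 pools, and their macrophage points lie below. The untreated library held 0 choroid plexus cells and has no point there.

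Most of the genes called in any class were called in microglia. Of 12494 genes tested, 345 rose (2.76%) and 684 fell (5.47%), 1029 in all (8.24%), in sums over 276 and 377 cells of the PT2385 pools and 1016 and 1621 cells of the PT2385/ICB pools. The genes that fell included interferon-induced chemokines, guanylate-binding proteins and antigen presentation genes. The count was 116 without PT2385 pool 1, 184 without PT2385 pool 2, 478 without PT2385/ICB pool 1 and 382 without PT2385/ICB pool 2. Macrophage RNA moved with the groups: the 10 macrophage markers used for classing summed to 313 and 321 CPM in microglia of the PT2385 pools and to 127 and 141 CPM in those of the PT2385/ICB pools (379 untreated, 436 and 425 with ICB). In microglia with at most 2 of these markers (245 and 334 against 979 and 1573 cells) 46 genes were called, 22 higher and 24 lower. Of the 995 called genes tested there, 984 kept their direction, 874 had an unadjusted p under 0.05, and the median gene kept 0.811 of its log2 difference. These cells are most of those in which the same genes were called, so this agreement is not independent evidence. With marker UMIs thinned to 2000 UMIs a cell for classing only, and full counts summed, 125 genes were called (the thinned fit). The part of macrophage RNA in these differences was not tested. Of the 1029 genes, 238 stood below 10% of their level in another class.

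Of the 6 largest falls among the genes named by rule, 4 were in genes that interferon gamma is known to induce (Cxcl9, Gbp2, Gbp6 and Il18bp), and the others were Cd36 and Hpse. Cxcl9, a chemokine that attracts CXCR3-bearing T cells, stood at 332 and 378 CPM in the PT2385 pools and 43.7 and 81.8 CPM in the PT2385/ICB pools. The groups did not overlap, and the untreated (246) and ICB libraries (144 and 320) lay between the groups. It fell by 2.49 ± 0.36 on the log2 scale (adjusted p = 0.00493). Gbp2 and Gbp6 encode interferon-induced GTPases of antimicrobial defense. Gbp2 went from 217 and 293 to 40.3 and 56.6 CPM (-2.39 ± 0.42, adjusted p = 0.0114), and Gbp6 from 60.4 and 49.1 to 12.4 and 10.8 CPM (-2.23 ± 0.37, adjusted p = 0.00879). Il18bp, a secreted trap for interleukin 18 that interferon gamma induces, went from 121 and 93.1 to 15.8 and 24.6 CPM (-2.38 ± 0.38, adjusted p = 0.00745). Cxcl9, Gbp2, Gbp6 and Il18bp each lost the call without either PT2385 pool, with adjusted p up to 0.103. With at most 2 macrophage markers Il18bp passed (0.0388), while Cxcl9 (0.0792), Gbp2 (0.0745) and Gbp6 (0.0961) did not.

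Cd36, a scavenger receptor for fatty acids and oxidized lipoproteins, stood at 35.7 and 41.2 CPM in the PT2385 pools and 6.45 and 7.95 CPM in the PT2385/ICB pools. Both combination pools lay below every PT2385 value (-2.41 ± 0.27, adjusted p = 0.00161). Hpse, the enzyme that cleaves heparan sulfate, was even between pools, at 36.8 and 36.7 against 8.01 and 7.51 CPM (-2.25 ± 0.21, adjusted p = 8.73e-04). Both kept the call without any 1 library and in microglia with at most 2 macrophage markers. Both lost it with cells classed on thinned UMIs (-0.99, adjusted p = 0.237, for Cd36 and -0.90, adjusted p = 0.423, for Hpse).

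The named rises were smaller. Nfe2l3, a transcription factor of the cap'n'collar family, stood at 4.79 and 11.3 CPM in the PT2385 pools and at 37.3 and 40.4 CPM in the PT2385/ICB pools. The ICB pools (18.8 and 19.1) lay between them. It rose by 2.21 ± 0.24 (adjusted p = 0.00157), and microglia held its highest level of all classes. Polg2, the accessory subunit of the mitochondrial DNA polymerase, went from 22.5 and 30.5 to 90.9 and 66.9 CPM (1.55 ± 0.18, adjusted p = 0.00232). Tob1, which restrains proliferation, went from 11.4 and 12.1 to 31.0 and 35.6 CPM (1.50 ± 0.19, adjusted p = 0.00279). Tnfrsf23, a decoy receptor for TRAIL, went from 12.9 and 14.1 to 42.5 and 33.6 CPM (1.48 ± 0.18, adjusted p = 0.00232). These 4 passed in microglia with at most 2 macrophage markers as well; Tob1 lost the call without PT2385 pool 1 (adjusted p = 0.0546). Pik3r3, a regulatory subunit of PI3-kinase, rose by 1.48 ± 0.24 (adjusted p = 0.00879; 2.23 without PT2385 pool 2), and Klf4 rose from 80.0 and 79.0 to 208 and 228 CPM (1.46 ± 0.28, adjusted p = 0.0152). For Klf4, a zinc-finger factor among the immediate early genes of macrophages, the untreated library (271 CPM) and the ICB pools (286 and 133) were also above the PT2385 pools; it lost the call without either PT2385 pool (adjusted p up to 0.148). With at most 2 macrophage markers neither Pik3r3 (0.0768) nor Klf4 (0.0733) passed.

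**Figure D2:**
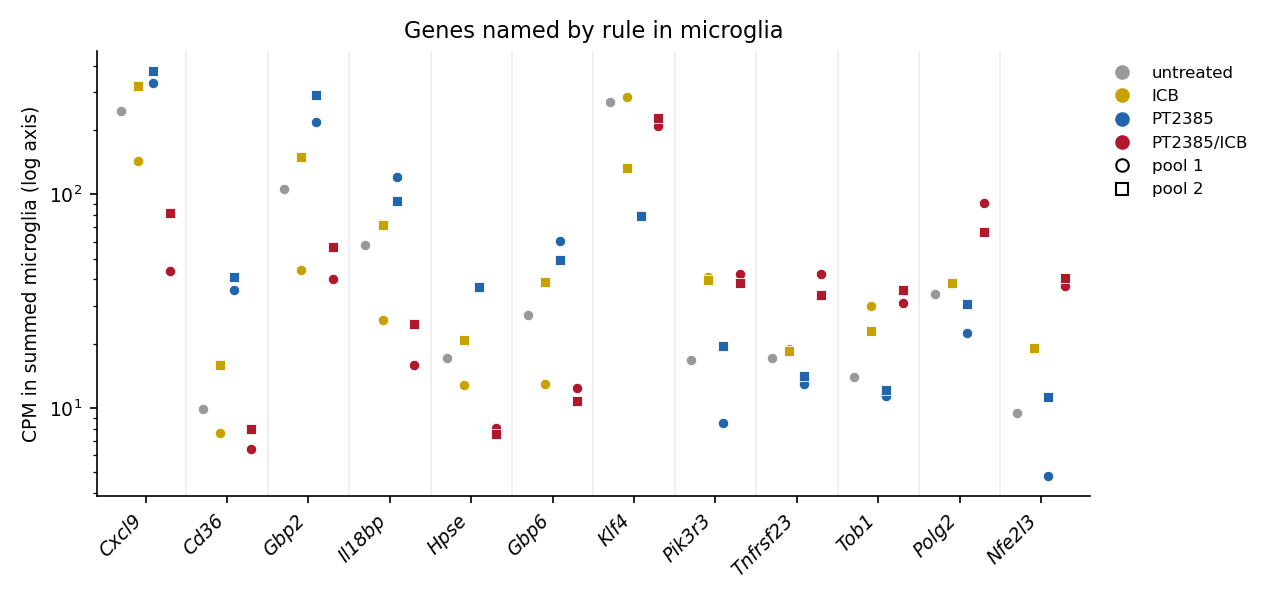
CPM of the 12 genes named by rule, in counts summed over the microglia of each library, on a log axis with 1 point per library. For the 6 genes at the left the PT2385/ICB points lie below the PT2385 points, as for Cxcl9 (43.7 and 81.8 against 332 and 378 CPM), and for the 6 at the right they lie above.

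The type I interferon list, antiviral genes and their signaling factors, moved as a block in microglia. Of its 28 members tested 23 fell and 0 rose, all 28 lay below 0, and the median log2 difference was -1.14 against 0.003 over all genes. Oasl2, a member of the oligoadenylate synthetase family, stood at 86.6 and 87.7 CPM in the PT2385 pools and 29.3 and 27.6 CPM in the PT2385/ICB pools. The untreated (58.6) and ICB libraries (55.8 and 66.7) lay between the groups (-1.62 ± 0.12, adjusted p = 3.48e-04). Zbp1, a sensor of Z-form nucleic acid that can trigger necroptosis, went from 98.4 and 83.5 to 22 and 22.8 CPM (-2.01 ± 0.18, adjusted p = 8.29e-04). Ifi27l2a, an interferon-induced mitochondrial protein, went from 552 and 558 to 192 and 184 CPM (-1.56 ± 0.14, adjusted p = 8.62e-04), and Bst2, which tethers budding viruses to the cell surface, from 557 and 476 to 238 and 225 CPM (-1.15 ± 0.14, adjusted p = 0.00232). These 4 kept the call without any 1 library, although Oasl2 and Ifi27l2a stood at 9.08% of the neutrophil and 9.71% of the regulatory T cell level, under the 10% limit, like 12 of the 28 members in all. Members that fell numbered 11 without PT2385 pool 1, 10 without PT2385 pool 2 and 14 without PT2385/ICB pool 2. In microglia with at most 2 macrophage markers all 28 members stayed below 0 (median -0.93), and Oasl2 and Zbp1 were the 2 that passed.

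The interferon gamma list held 20 falls among 25 members (median -1.56). Irgm1, a GTPase that guards against vacuolar pathogens, went from 87.0 and 115 to 39.0 and 38.2 CPM (-1.40 ± 0.21, adjusted p = 0.00605), and Ciita, the master regulator of MHC class II genes, from 49.7 and 60.4 to 14.8 and 14.9 CPM (-1.90 ± 0.25, adjusted p = 0.00387). Without PT2385 pool 2 their adjusted p was 0.0787 and 0.0574. Cd274, the PD-1 ligand PD-L1, stood at 269 and 186 CPM in the PT2385 pools and 51.7 and 56.0 CPM in the PT2385/ICB pools. Untreated microglia (92.0) and the ICB pools (52.8 and 131) lay at or between these values. Cd274 fell by 2.07 ± 0.33 (adjusted p = 0.00728) and lost the call without PT2385 pool 1 (0.0942) and in microglia with at most 2 macrophage markers (-1.57, adjusted p = 0.0850). Falls in this list numbered 3 without PT2385 pool 1 and 4 without PT2385 pool 2, and 2 in the microglia with fewer macrophage markers, where 22 of 24 members still lay below 0 (median -1.31).

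Promoters of the interferon genes that fell are shown because many carry the core of the interferon-stimulated response element, which ISGF3 and other IRF-containing complexes bind. The letters GAAANNGAAA were searched on both strands, overlaps allowed, in the 250 bases before each gene's start in RefSeq promoters of GRCm38.p6, while the counts were made on GRCm39. They occurred in 936 of 27025 promoters (3.46%). Of the 52 members of both interferon lists tested in microglia 37 matched a promoter and 21 of these held the motif (56.8%); of the 27 matched members that fell 18 did (66.7%). The interferon lists were chosen as known targets, so the share describes the lists. A match is not evidence of binding here. Below are 80-base stretches of 4 genes that fell, 5′ to 3′ on the gene's strand, with each match in capitals; for Gbp2 it lies on the opposite strand.
Bst2: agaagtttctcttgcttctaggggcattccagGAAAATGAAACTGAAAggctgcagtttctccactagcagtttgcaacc
Irgm1: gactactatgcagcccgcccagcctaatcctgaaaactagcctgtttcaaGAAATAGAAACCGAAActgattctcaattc
Cxcl10: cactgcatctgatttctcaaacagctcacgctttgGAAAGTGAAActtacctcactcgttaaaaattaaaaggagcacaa
Gbp2: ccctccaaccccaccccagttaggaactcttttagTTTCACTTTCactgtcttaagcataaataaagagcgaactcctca
The stretches lie at chr8:71537555-71537634 (Bst2, minus strand, 2 overlapping matches), chr11:48871421-48871500 (Irgm1, minus strand, 2 overlapping matches), chr5:92349058-92349137 (Cxcl10, minus strand) and chr3:142620569-142620648 (Gbp2, plus strand), all within the 250 bases before the gene's start.

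Antigen presentation and chemokine genes fell with the interferon lists. Of 20 MHC class I presentation genes 14 fell (median -0.88) and all 20 lay below 0. H2-T23, the nonclassical molecule Qa-1, went from 501 and 504 to 253 and 204 CPM (-1.14 ± 0.16, adjusted p = 0.00477), and Psmb8, an immunoproteasome subunit, from 492 and 487 to 249 and 230 CPM (-1.03 ± 0.16, adjusted p = 0.00595). H2-T23 lost the call without PT2385 pool 1 (0.0572) and Psmb8 without either PT2385 pool (up to 0.0692). Of 15 MHC class II genes 11 fell (median -1.36). H2-Ab1, the beta chain of I-A, stood at 3735 and 3021 CPM in the PT2385 pools and 885 and 810 CPM in the PT2385/ICB pools. That fall of 1.99 ± 0.28 (adjusted p = 0.00489) was lost without PT2385 pool 1 (0.0667), and macrophages held the higher level of this gene. Without PT2385 pool 1 the falls numbered 2 of the class I list and 2 of the class II list; without PT2385 pool 2 they numbered 1 and 4; and without PT2385/ICB pool 2 the class I list held 9. With at most 2 macrophage markers 1 gene of each list passed, while 20 of 20 and 14 of 15 lay below 0.

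Among 18 chemokines 8 fell and 1 rose (median -0.68). Cxcl10, a second CXCR3 ligand, stood at 174 and 342 CPM in the PT2385 pools and 90.4 and 85.7 CPM in the PT2385/ICB pools. The PT2385 pools differed from each other more than the combination pools did (-1.56 ± 0.27, adjusted p = 0.0110), and the call was lost without PT2385 pool 2 (0.0774). Cxcl16, a CXCR6 ligand and scavenger receptor, went from 245 and 184 to 91.2 and 89.6 CPM (-1.24 ± 0.15, adjusted p = 0.00243; 0.0906 with at most 2 macrophage markers). Falls numbered 3 without either PT2385 pool and 1 with at most 2 macrophage markers, and the 1 rise was lost without any 1 of the 4 libraries compared.

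Genes of disease-associated microglia, a state seen around dying neurons and plaques, fell in part: 9 of 24 passed (median -0.71) and none rose. Cst7, the cysteine protease inhibitor cystatin F, stood at 216 and 176 CPM in the PT2385 pools and 42.1 and 43.4 CPM in the PT2385/ICB pools, with the untreated (103) and ICB libraries (56.1 and 95.7) between them (-2.19 ± 0.21, adjusted p = 9.03e-04; 0.0664 thinned). Lgals3, galectin 3, went from 324 and 177 to 29.8 and 48.8 CPM (-2.65 ± 0.28, adjusted p = 0.00126); its microglial level was 9.42% of that in macrophages, so it falls outside the naming rule, and thinned its adjusted p was 0.107. Axl, a receptor for apoptotic cells, fell by 1.06 ± 0.13 (adjusted p = 0.00239); the call was lost thinned (0.0791) and with at most 2 macrophage markers (0.102). Fcgr4, an activating Fc receptor for IgG, went from 179 and 183 to 66.6 and 55.8 CPM (-1.57 ± 0.16, adjusted p = 0.00121; 0.0552 with at most 2 macrophage markers), 1 of 6 falls among 15 complement and Fc receptor genes. Disease-associated falls numbered 3 without PT2385 pool 1, 4 without PT2385 pool 2, 5 without PT2385/ICB pool 1, 4 without PT2385/ICB pool 2, 14 without either ICB pool and 2 with at most 2 macrophage markers. Complement and Fc receptor falls numbered 2 without PT2385 pool 1, 1 without PT2385 pool 2, 3 without PT2385/ICB pool 2 and 1 with at most 2 macrophage markers.

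Homeostatic microglial genes were higher. Of 13 tested (those used for classing left out) 3 rose, 0 fell and 12 lay above 0 (median 0.33). Fcrls, a microglial Fc receptor-like protein, stood at 360 and 485 CPM in the PT2385 pools and 717 and 903 CPM in the PT2385/ICB pools, while the untreated (796) and ICB libraries (985 and 716) were in the combination's range (0.94 ± 0.19, adjusted p = 0.0190). Cx3cr1, the fractalkine receptor, went from 1662 and 1674 to 2318 and 2286 CPM (0.47 ± 0.12, adjusted p = 0.0440), and Siglech rose by 0.53 ± 0.14 (adjusted p = 0.0451; 0.35 without PT2385/ICB pool 2). No member of this list passed without PT2385 pool 1, without PT2385 pool 2, without PT2385/ICB pool 2 or with at most 2 macrophage markers, where 9 of 13 lay above 0; 5 passed without either ICB pool.

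Genes that tissue dissociation is known to raise moved in the same direction. Of 19 dissociation stress genes 8 rose and 0 fell (median 0.48). Jun, a subunit of the AP-1 factor, stood at 2353 and 2581 CPM in the PT2385 pools and 3881 and 4412 CPM in the PT2385/ICB pools (0.75 ± 0.15, adjusted p = 0.0171); untreated (4039) and ICB microglia (4034 and 3320) were nearer the combination. Egr1 rose by 0.62 ± 0.12 (adjusted p = 0.0149) and Dnajb1, a heat-shock cochaperone, by 0.73 ± 0.12 (adjusted p = 0.00771). Rises numbered 0 without PT2385 pool 1, 1 without PT2385 pool 2, 3 without PT2385/ICB pool 1, 1 without PT2385/ICB pool 2 and 0 with at most 2 macrophage markers. What part this stress had in the other rises was not tested.

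Lists tied to metabolism and oxygen were mixed or lower. Of 31 hypoxia and glycolysis genes 2 rose and 6 fell, and of 16 HIF-2-associated genes 2 rose and 2 fell. Of 24 nuclear oxidative phosphorylation genes 11 fell (median -0.43). Over all genes tested in microglia, 2.76% rose and 5.47% fell. Tfrc, the transferrin receptor, went from 6.63 and 9.31 to 27.9 and 25.5 CPM (1.71 ± 0.30, adjusted p = 0.0103) and lost the call without either PT2385 pool (up to 0.122). Cited2, a HIF-induced inhibitor of HIF activity, rose by 0.69 ± 0.15 (adjusted p = 0.0221), a call lost without PT2385 pool 1 or PT2385/ICB pool 2 (up to 0.142). Plin2, which coats lipid droplets, stood at 89.2 and 87.2 CPM against 35.9 and 32.4 CPM (-1.37 ± 0.16, adjusted p = 0.00232) and lost the call with at most 2 macrophage markers (0.0539). Hif1a fell by 0.68 ± 0.16 (adjusted p = 0.0338), a call lost without any 1 of the 4 libraries compared (up to 0.219), thinned, and with at most 2 macrophage markers (0.245). Of 22 proliferation genes 14 fell (median -1.39), but 11 of the 22 stood below 10% of their level in another class; Mki67 was at 21.0 and 26.0 against 3.59 and 5.99 CPM, 5.72% of its level in CD8 T cells. Hypoxia falls numbered 0 without PT2385 pool 1, 1 without PT2385 pool 2, 3 without PT2385/ICB pool 1 and 1 without PT2385/ICB pool 2. In the same order, hypoxia rises numbered 0, 0, 0 and 1, HIF-2-associated rises 0, 1, 2 and 1 and falls 1, 1, 2 and 2, oxidative phosphorylation falls numbered 1, 0, 3 and 2 and proliferation falls 6, 5, 8 and 9. With at most 2 macrophage markers none of these 4 lists held a fall, and 1 HIF-2-associated gene rose.

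**Figure D3:**
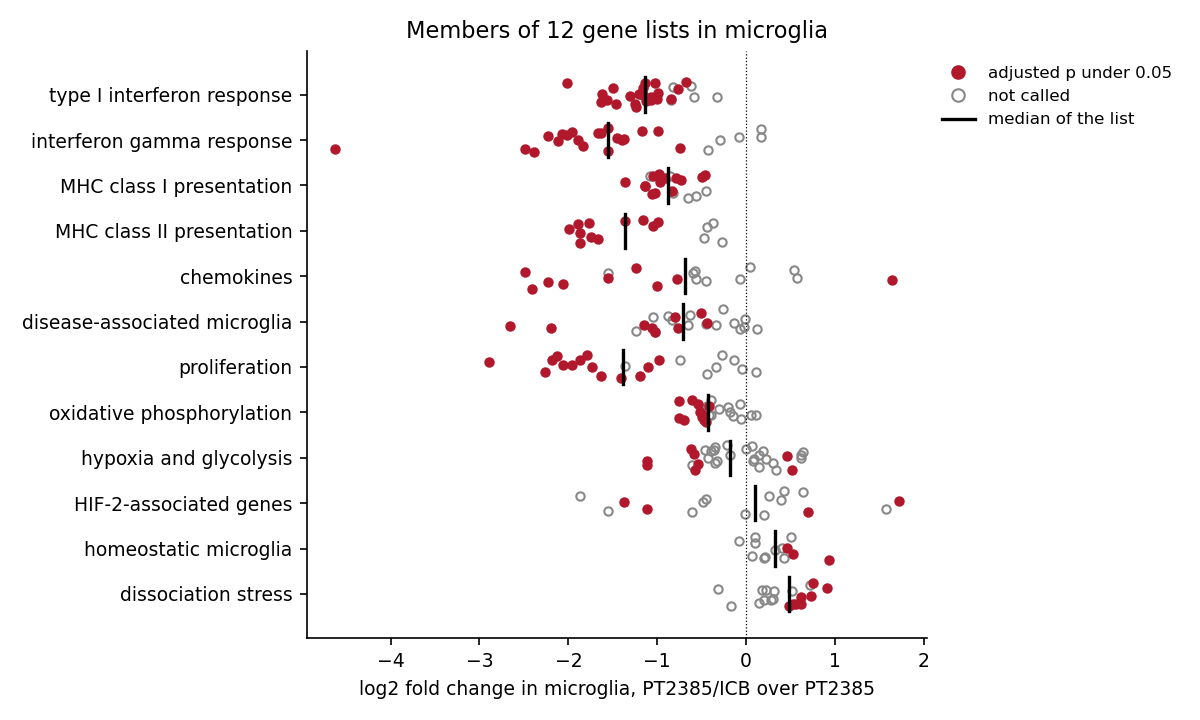
log2 differences in microglia, PT2385/ICB minus PT2385, of the members of 12 gene lists, 1 point per gene, filled where the adjusted p is under 0.05, with the median of each list as a black line. The medians of the type I interferon (-1.14) and interferon gamma (-1.56) lists lie left of 0 and that of the dissociation stress list (0.48) lies right of it.

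Whether ICB acted differently in mice given PT2385 was asked by the difference of both ICB effects, (PT2385/ICB minus PT2385) minus (ICB minus untreated). It rests on 1 untreated library and was not run in microglia with at most 2 macrophage markers. Macrophage marker RNA in microglia was also lower with PT2385/ICB than with PT2385, and higher with ICB than in the untreated library. Its part was not tested. In microglia 181 genes passed (1.45%), 30 of them above 0, and 74 stood below 10% of their level in another class. For Ifi27l2a the PT2385/ICB pools (192 and 184 CPM) lay below the PT2385 pools (552 and 558), whereas the ICB pools (413 and 561) lay above the untreated library (348), and the effects differed by -2.05 ± 0.23 (adjusted p = 0.00600). Bst2 (-1.56 ± 0.22, adjusted p = 0.0152), Axl (-1.52 ± 0.22, adjusted p = 0.0152) and Fcgr4 (-1.79 ± 0.27, adjusted p = 0.0159) also passed. With at most 2 macrophage markers Ifi27l2a, Bst2, Axl and Fcgr4 each lost the call between PT2385/ICB and PT2385. Cxcl9 (-2.41 ± 0.57, adjusted p = 0.0749), H2-Ab1 (-1.47 ± 0.44, adjusted p = 0.137) and Cd274 (-2.07 ± 0.55, adjusted p = 0.103) did not pass the test of the difference of ICB effects. The count was 611 without ICB pool 1, 119 without ICB pool 2, 30 without PT2385 pool 1, 23 without PT2385 pool 2 and 103 without PT2385/ICB pool 1.

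Macrophages, the largest class of the PT2385 pools, gave no gene past the threshold. Of 13180 genes 0 were called (0.0%) by edgeR's quasi-likelihood test, 657 had an unadjusted p under 0.05, and DESeq2 called 26. Inhba, which encodes the activin A subunit, was the 1 lower gene among the 4 with the smallest p that the rule names: 34.7 and 37.3 CPM in the PT2385 pools and 9.31 and 16.5 CPM in the PT2385/ICB pools. The groups did not overlap, but the difference (-1.48 ± 0.25) had an adjusted p of 0.766. Untreated (6.02) and ICB macrophages (7.17 and 7.85) were below both groups. Cd83, a maturation marker of antigen-presenting cells, was at 323 and 335 against 480 and 479 CPM (0.54 ± 0.08, adjusted p = 0.766), and Slc15a2, a peptide transporter, at 36.1 and 44.5 against 99.8 and 91.5 CPM (1.25 ± 0.25, adjusted p = 0.766). Fosb, a gene of the dissociation stress list, was higher by 0.54 ± 0.10 (adjusted p = 0.766). Of the 19 members of that list 11 were higher in both combination pools and 1 was lower, against 20.7% and 20.2% of all genes. Their median was 0.21, and none passed.

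Nos2, the inducible nitric oxide synthase, stood at 451 and 322 CPM in the PT2385 macrophages and 61.7 and 215 CPM in the PT2385/ICB macrophages. The combination pools differed from each other by more than the PT2385 pools did, and both lay below them (-1.48 ± 0.59, adjusted p = 0.980); the difference was -0.85 without PT2385/ICB pool 1 and -2.65 without PT2385/ICB pool 2. Untreated (49.5) and ICB macrophages (8.96 and 18.3) were lower still. Arg1, which competes for the same substrate arginine, was at 694 and 570 against 164 and 400 CPM (-1.17 ± 0.38, adjusted p = 0.971; -0.67 and -1.95 without the same pools). Cd274 was at 849 and 731 against 411 and 655 CPM (-0.57 ± 0.24, adjusted p = 0.988; -0.27 and -0.94 without them). Both combination pools were below both PT2385 pools for 9 of 20 MHC class I genes and 9 of 27 interferon gamma genes, against 20.2% of all genes. Medians of these lists were -0.13 and -0.21, and that of all genes was -0.0021. Without PT2385/ICB pool 1 they were -0.03 and 0.03, so the interferon gamma median changed sign, and without PT2385/ICB pool 2 they were -0.27 and -0.60. Of 20 homeostatic microglial genes 16 were higher in both combination pools, against 20.7% of all genes, but 15 stood below 10% of their level in another class.

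In dendritic cells, 148 and 169 cells against 83 and 83, the 1 gene called of 8996 (0.0111%) was Ttr. Il1rn, the interleukin 1 receptor antagonist, stood at 26.7 and 25.9 CPM in the PT2385 pools and 64.7 and 52.8 CPM in the PT2385/ICB pools (1.15 ± 0.21, adjusted p = 0.391). Cxcl9 was at 197 and 144 against 346 and 624 CPM, the opposite side from microglia, with an adjusted p of 0.587 (1.51 ± 0.32). With cells classed on UMIs thinned to 2000 a cell, the Cxcl9 difference was -0.32. Dgkh, a diacylglycerol kinase, was lower by 1.03 ± 0.21 on the log2 scale (adjusted p = 0.587), and Cd302, a C-type lectin, was higher by 1.27 ± 0.31 (adjusted p = 1.000). Type I interferon genes were lower in both combination pools for 13 of 25 members (median -0.24), against 14.9% of all genes; for MHC class I genes the count was 0 of 20. Calls numbered 4 without PT2385/ICB pool 1 and 2 without either ICB pool.

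In CD8 T cells, 232 and 144 cells against 174 and 219, Ttr was again the 1 gene called of 9669 (0.0103%). Cell-cycle genes tended to be higher. Ube2c, a ubiquitin-conjugating enzyme of mitotic exit, stood at 86.4 and 119 CPM in the PT2385 pools and 249 and 248 CPM in the PT2385/ICB pools (1.28 ± 0.25, adjusted p = 0.483). Cenpf, a kinetochore protein, was at 54.2 and 64.6 against 124 and 134 CPM (1.13 ± 0.22, adjusted p = 0.483). Of 22 proliferation genes 13 were higher in both combination pools, against 16.3% of all genes, and 19 lay above 0 (median 0.47; all genes 0.0012). None passed the test. Calls over all genes numbered 0 without either PT2385 pool and 15 without PT2385/ICB pool 1. The median was 0.30 to 0.53 without any 1 library.

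Other CD8 T genes were lower without passing. Of 17 cytotoxic effector genes 6 were lower in both combination pools and 1 was higher, against 15.8% and 16.3% of all genes, with 10 below 0 and 7 above (median -0.15). Ccl4, an inflammatory chemokine, stood at 1339 and 1436 CPM in the PT2385 pools and 562 and 708 CPM in the PT2385/ICB pools (-1.13 ± 0.18, adjusted p = 0.379). The ICB pools (627 and 851) were close to the combination. Styk1, a kinase-like receptor of cytotoxic lymphocytes, was at 114 and 92.4 against 49.0 and 37.2 CPM (-1.28 ± 0.21, adjusted p = 0.389). Ifng was at 249 and 287 against 117 and 208 CPM (-0.71 ± 0.24, adjusted p = 0.999; -0.38 without PT2385/ICB pool 1 and -1.19 without PT2385/ICB pool 2). Gzmb, granzyme B, was at 1130 and 1649 against 1101 and 576 CPM (-0.73 ± 0.31, adjusted p = 0.999; -1.28 and -0.33 without the same pools, and -0.43 without PT2385 pool 2). Of 26 type I interferon genes 12 were lower in both combination pools, and all 26 lay below 0 (median -0.56; -1.06 without PT2385/ICB pool 1 and -0.18 without PT2385/ICB pool 2). None passed. Macrophage markers summed to 1791 and 1873 CPM in these cells in the PT2385 pools and to 1837 and 689 CPM in the PT2385/ICB pools, and their part in these values was not tested; T cells themselves express some of them, such as Ccr2 and Ly6c2.

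CD4 T cells, 192 and 195 cells against 184 and 101, had 22 genes called of 9588 (0.229%), 11 higher and 11 lower; 9 of them stood below 10% of their level in another class. Ccl3, an inflammatory chemokine, stood at 641 and 460 CPM in the PT2385 pools and 62.6 and 87.1 CPM in the PT2385/ICB pools. Untreated (320) and ICB cells (149 and 106) lay between the groups. It fell by 2.91 ± 0.24 (adjusted p = 0.00219) and kept the call without any 1 library; its mean level was 51.1% of that in microglia. Slc17a6, a vesicular glutamate transporter, went from 36.6 and 35.6 to 2.75 and 8.47 CPM (-2.86 ± 0.40, adjusted p = 0.0259), and Serpine2, a protease inhibitor, from 57.7 and 87.0 to 15.8 and 23 CPM (-1.95 ± 0.28, adjusted p = 0.0282). Nrgn, a calmodulin-binding protein, fell by 1.26 ± 0.18 (adjusted p = 0.0259), Dut, which keeps uracil out of DNA, by 1.02 ± 0.14 (0.0259), and Sept11, a septin, by 0.97 ± 0.15 (0.0337). Of these 5, Slc17a6, Nrgn and Sept11 lost the call without either PT2385 pool or PT2385/ICB pool 1, Serpine2 without PT2385 pool 2 or PT2385/ICB pool 1, and Dut without any 1 of the 4 libraries compared (up to 0.244).

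Some called genes were on the other side, among them 1 of less differentiated T cells. Tcf7, which encodes TCF1, a factor of naive and memory T cells, stood at 38.1 and 40.5 CPM in the PT2385 pools and 85.3 and 127 CPM in the PT2385/ICB pools. The ICB pools (111 and 116) were in the combination's range, and the untreated library (54.1) was nearer PT2385. Tcf7 rose by 1.40 ± 0.21 (adjusted p = 0.0282). Emb, the adhesion protein embigin, went from 343 and 381 to 756 and 704 CPM (1.01 ± 0.12, adjusted p = 0.0159), and Gprin3 from 88.6 and 82.1 to 189 and 151 CPM (1.01 ± 0.16, adjusted p = 0.0419). These 3 lost the call without either PT2385 pool, and Gprin3 also without PT2385/ICB pool 1 (up to 0.361). Slamf6, a receptor carried by the same progenitor cells as TCF1, was at 68.0 and 52.0 against 115 and 135 CPM (1.05 ± 0.21, adjusted p = 0.0966). Ifng was at 1642 and 972 against 482 and 674 CPM (-1.18 ± 0.23, adjusted p = 0.0872; -0.76 without PT2385 pool 1), and Lag3, an inhibitory receptor, at 276 and 249 against 106 and 171 CPM (-0.96 ± 0.20, adjusted p = 0.0992; -0.63 without PT2385/ICB pool 1). Of 15 stem or memory genes 6 were higher in both combination pools, against 22.6% of all genes.

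**Figure D4:**
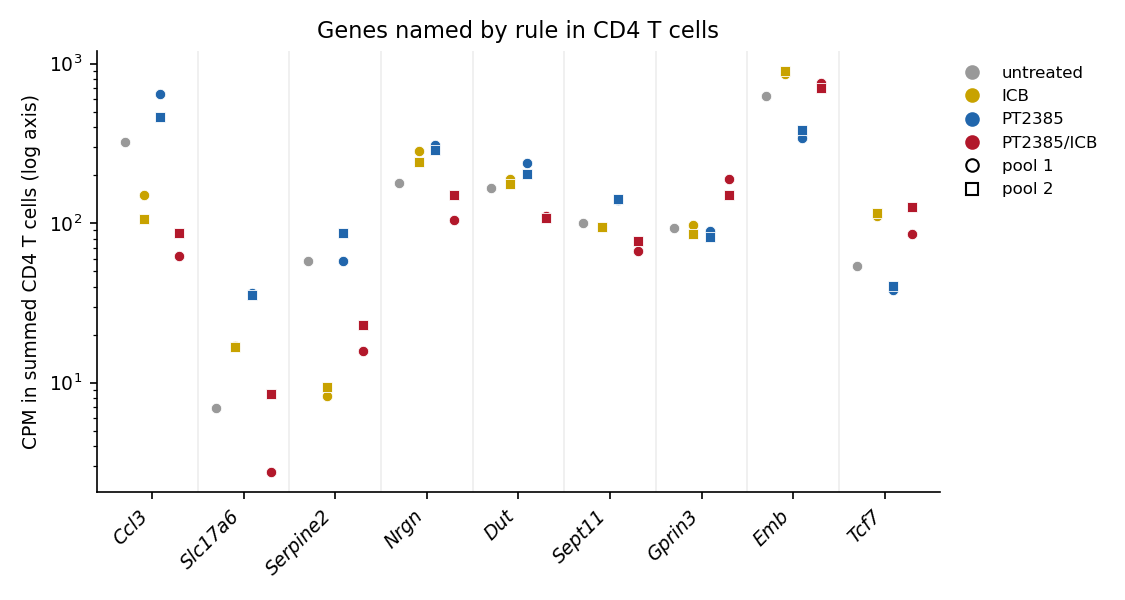
CPM of the 9 genes named by rule, in counts summed over the CD4 T cells of each library, on a log axis with 1 point per library. For Ccl3 the PT2385/ICB points (62.6 and 87.1 CPM) lie below all other libraries, and for Tcf7 they (85.3 and 127 CPM) lie near the ICB points.

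No proliferation gene passed in CD4 T cells, nor in CD8 T cells. Of 22 members 16 were lower in both combination pools, against 22% of all genes, and all 22 lay below 0 (median -0.65; all genes 0.0086). Mki67, the Ki-67 antigen of cycling cells, was at 128 and 150 against 73.6 and 81.0 CPM (-0.85 ± 0.18, adjusted p = 0.0992), and Top2a at 171 and 190 against 81.9 and 120 CPM (-0.87 ± 0.18, adjusted p = 0.0967). Hypoxia and glycolysis genes were lower in both combination pools for 18 of 29 members, against 22% of all genes. For oxidative phosphorylation genes this count was 15 of 24. CD4 T calls numbered 5 without PT2385 pool 1, 7 without PT2385 pool 2, 58 without PT2385/ICB pool 2 and 33 without either ICB pool. Macrophage markers summed to 950 and 1375 CPM in these cells in the PT2385 pools and to 773 and 591 CPM in the PT2385/ICB pools, and microglial markers to 19.6 and 29.6 against 114 and 59.6 CPM; their part was not tested. All 11 complement and Fc receptor genes tested stood below 10% of their level in another class. Of these, 10 were higher in both combination pools, against 22.6% of all genes.

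Regulatory T cells were few, 67 and 62 against 75 and 38, and 2 genes of 7687 were called (0.026%), Ttr and Ccl8. Ccl8, a monocyte-attracting chemokine, stood at 9.97 and 28.9 CPM in the PT2385 pools and 333 and 196 CPM in the PT2385/ICB pools (3.81 ± 0.43, adjusted p = 0.00764), and lost the call without PT2385/ICB pool 1 (0.270). Its level here was 10.4% of that in cells with no lineage, and the part of RNA from other cells was not tested. Calls numbered 0 without PT2385/ICB pool 1 and 3 without either PT2385 pool. Cdk11b was at 124 and 187 against 313 and 451 CPM (1.28 ± 0.23, adjusted p = 0.255), Neurl3 at 154 and 201 against 399 and 361 CPM (1.10 ± 0.21, adjusted p = 0.317) and Eprs, a tRNA synthetase, at 121 and 116 against 278 and 193 CPM (1.02 ± 0.20, adjusted p = 0.435). Oxidative phosphorylation genes were lower in both combination pools for 12 of 24 members (median -0.11), against 17.8% of all genes. Of 20 genes of regulatory T cell activation 2 were higher in both combination pools, against 16.6% of all genes, and 2 were lower.

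In NK cells, 159 and 133 against 94 and 105, 4 genes of 8096 were called (0.0494%): Hist1h2ae, Igkc, Ly6a and Ttr. Ly6a, the interferon-inducible surface protein Sca-1, stood at 229 and 232 CPM in the PT2385 pools and 101 and 93.1 CPM in the PT2385/ICB pools. It fell by 1.25 ± 0.16 (adjusted p = 0.00551), lost the call without either PT2385 pool and without PT2385/ICB pool 2 (up to 0.172), stood at 5.46% of its plasmacytoid cell level, and was picked after its values were seen. Gzmb was at 2431 and 2511 against 1280 and 1737 CPM (-0.71 ± 0.13, adjusted p = 0.112). Lilrb4a, an inhibitory receptor, was at 99.1 and 87.3 against 48.0 and 52.6 CPM (-0.89 ± 0.19, adjusted p = 0.276), and Cmss1 and D5Ertd615e were higher by 0.65 ± 0.12 (0.131) and 0.79 ± 0.18 (0.285). Type I interferon genes were lower in both combination pools for 11 of 23 members (median -0.34) and MHC class I genes for 10 of 20, against 17.5% of all genes. The difference of the ICB effects passed for 19 genes (0.235%), 17 of them above 0 and 18 below 10% of their level in another class; this count was 33 without ICB pool 1, 51 without ICB pool 2, 1 without PT2385 pool 1, 0 without PT2385 pool 2, 72 without PT2385/ICB pool 1 and 12 without PT2385/ICB pool 2. In the same order the calls between PT2385/ICB and PT2385 numbered 6, 6, 1, 1, 11 and 2.

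**Figure D5:**
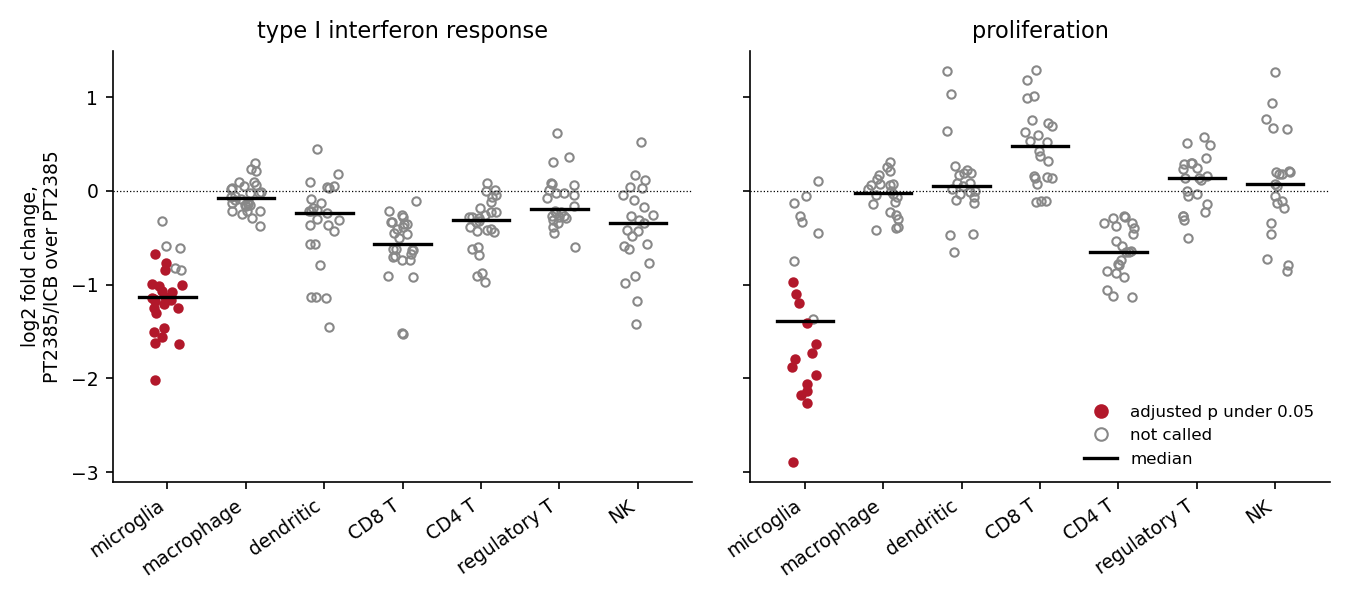
log2 differences, PT2385/ICB minus PT2385, of the members of the type I interferon list (left) and the proliferation list (right) in each class, 1 point per gene, filled where the adjusted p is under 0.05, with the median as a black line. Type I interferon medians run from -1.14 in microglia to -0.08 in macrophages, and proliferation medians lie at 0.47 in CD8 and -0.65 in CD4 T cells.

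With all libraries in, the type I interferon median was below 0 in each of the 7 classes: -1.14 in microglia, -0.08 in macrophages, -0.24 in dendritic cells, -0.56 in CD8 T, -0.31 in CD4 T, -0.19 in regulatory T and -0.34 in NK cells. The macrophage median changed sign without PT2385 pool 2 (0.04) or PT2385/ICB pool 2 (0.08) and was -0.15 and -0.17 without the other 2. The CD4 T median was -0.51 without PT2385 pool 1 and -0.05 without PT2385 pool 2, and the NK median -0.13 without PT2385 pool 1. Dendritic cells had -0.15 without PT2385/ICB pool 1, and regulatory T cells -0.12 to -0.10 without any 1 of the 4. Members passed the test in microglia alone, and the classes were not tested against each other.

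The antibody targets themselves did not pass in any class. Pdcd1 stood at 374 and 342 CPM in CD8 T cells of the PT2385 pools and 287 and 487 CPM in those of the PT2385/ICB pools, with overlap (0.11 ± 0.27, adjusted p = 0.999; -0.32 without PT2385/ICB pool 2). With the counts of each cell thinned to 2000 UMIs, a Pdcd1 UMI was found in 50.9% and 40.1% of CD8 T cells against 40% and 56.9%. The unthinned shares were 80.6% and 75.7% against 64.4% and 90.0%. In NK cells, which carry little PD-1, the thinned share was at most 1.95%; median depths were 8284 to 9786 UMIs in CD8 T and 5894 to 7432 UMIs in NK cells. Havcr2 was at 197 and 230 against 159 and 158 CPM in CD8 T cells (-0.43 ± 0.17, adjusted p = 0.999) and at 194 and 205 against 182 and 186 CPM in microglia (-0.12 ± 0.11, adjusted p = 0.571). A Havcr2 UMI was found in 24.2% and 28.8% of thinned microglia against 28.9% and 33.9% (unthinned 74.3% and 70.8% against 73.5% in both). Lgals9, the TIM-3 ligand galectin 9, was at 250 and 251 against 192 and 195 CPM in microglia (-0.37 ± 0.11, adjusted p = 0.0665). Epas1 was at 0.737 and 0.564 against 1.47 and 2.33 CPM in microglia (1.57 ± 0.77, adjusted p = 0.250), too few UMIs to compare.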

How the data were processed

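UMI counts per gene and cell, made by the authors with Cell Ranger (7.0.0 per the file headers, 2.2.0 per the submitters' processing notes) on GRCm39, were used as deposited. A barcode was kept as a cell from 300 detected genes up and with mitochondrial UMIs no higher than 10%, and cells were classed by distinct markers and marker UMIs (for microglia, 5 of 8 markers and 8 UMIs; for macrophages, 5 of 10 and 10); cells positive for 2 lineages were left out of the classes. Raw counts were summed per library and class, filtered by filterByExpr and tested with edgeR 4.0.16 (TMM, glmQLFit, glmQLFTest), 1 mean per group over all 7 libraries, with Benjamini-Hochberg adjustment over the genes of a class; adjusted p under 0.05 is a call. Library totals were 59839154 to 81960504 UMIs. CPM of genes use TMM-scaled totals, while those of Ttr, Ptprc, Igkc and summed markers do not. Scripts were tested on simulated data.

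Genes named by rule passed the test at a mean of at least 20 CPM and 10% of the level in the class where they were highest, with both pools of a group on 1 side: the 6 largest changes each way. A class with under 4 such genes instead has the 4 of lowest p. Marker genes, receptor segments and predicted genes were not named; the antibody and drug targets and up to 4 members with the smallest p of each described list were added, and those may lie below the 20 CPM and 10% limits. The members and the 24 lists were chosen with earlier results of these data known. No doublets were removed in the main values: Scrublet's automatic threshold marked 0 to 4 cells a library, so the alternative removed the highest 0.8% per 1000 barcodes. Thinned values left out cells under 2000 UMIs. In the thinned fits only the marker UMIs used for classing were thinned, and the full counts of the cells were summed. Shares of cells with a Pdcd1 or Havcr2 UMI used thinned counts of these genes. Promoters are RefSeq's (GRCm38.p6). DESeq2 1.42.0 was an alternative.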

Additional observations from a re-analysis of the deposited data

Results flagged for a closer look

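In microglia, the ICB effect with PT2385 differed from that without it for 16 of the genes named, by the test of (PT2385/ICB minus PT2385) minus (ICB minus untreated) in edgeR's quasi-likelihood test. On the log2 scale the differences were -1.52 for Axl, -1.56 for Bst2, -2.64 for Cd36, -1.75 for Cst7, -1.30 for Cxcl16, -1.79 for Fcgr4, -2.21 for Hpse, -2.05 for Ifi27l2a, -1.89 for Irgm1, -3.32 for Lgals3, -1.39 for Plin2, -1.68 for Oasl2, -1.22 for Psmb8 and -2.06 for Zbp1. Those of the cell-cycle genes Mki67 (-5.90) and Top2a (-5.60) were the furthest from 0 among the 16, at levels below 10% of those in CD8 T cells. All 16 rest on the single untreated library, which is assumed to vary like the others. The test was not run in microglia with at most 2 macrophage markers. In those cells Cd36, Cst7, Hpse, Irgm1, Lgals3, Oasl2 and Zbp1 kept the call between PT2385/ICB and PT2385, and the other genes lost it. The part of macrophage RNA in these differences was not tested.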

How the results depend on the processing

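Depth and 2 pools a group limit these results: calls across genes rest on 3 residual degrees of freedom and the smallest classes on under 100 cells a pool. No paired analysis was possible because the pools carry no number in the labels and come from different mice. Some of the alternatives pooled next barely change the fit: without the untreated library 1031 genes were called in microglia, against 1029. The pooled count of kept calls is therefore not a measure of stability. Of 820 alternative values behind 52 calls of named genes, 682 kept the call, 138 lost it and 0 reversed; 20 of the 52 were kept in every fit without 1 library.

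Genes called in microglia numbered 655 with DESeq2, 1877 with no filter on low counts and 125 with cells classed on thinned UMIs. They numbered 46 with at most 2 macrophage markers, an alternative chosen after seeing the data. Macrophage calls were 26 with DESeq2. Dendritic calls were 2 in a fit of the 4 libraries alone, 2 with DESeq2, 32 with no filter, 2 with the marker UMIs asked multiplied by 2 and 22 thinned. CD8 T calls were 5 with DESeq2, 99 with no filter and 11 thinned. CD4 T calls were 36 with DESeq2, 464 with no filter, 37 with more marker UMIs and 12 thinned. Regulatory T calls were 76 with no filter and 1 with more marker UMIs; the thinned fit was not run, for fewer than 20 cells. NK calls were 57 with no filter, 2 with more marker UMIs and 0 thinned. The cause of these differences was not tested.

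The microglial share was 1.95 with TMM factors, 2.02 after Scrublet and 2.03 by the exact permutation test, and that of choroid plexus 5.35 by the latter, each without a call. The regulatory T share turned to 0.12 with the 7 classes as denominator. Dendritic Cxcl9 turned to -0.32 thinned, and Pdcd1 in CD8 T cells ranged from -0.32 to 0.43 without 1 library.

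Leaving out 1 library gave 116 to 1391 calls in microglia, 0 in macrophages, 1 to 4 in dendritic cells, 0 to 15 in CD8 T, 5 to 58 in CD4 T, 0 to 3 in regulatory T and 1 to 11 in NK cells. For the difference of the ICB effects it gave 23 to 611, 0 to 27, 0, 0 to 22, 0 to 8, 0 to 3 and 0 to 72. Shares then ranged from 1.75 to 2.27 for microglia, 4.76 to 6.29 for choroid plexus, -0.23 to 0.49 for CD8 T, -0.98 to 0.04 for CD4 T and -0.81 to 0.33 for regulatory T cells, and the difference of the ICB effects on shares from -0.98 to 0.05 for CD4 T and -0.59 to 0.69 for regulatory T cells.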
